A study of Mus musculus with 14 samples.

Results

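The 10 genes described here are Atf4, Ddit3, Trib3, Chac1 and Asns, which answer to the Atf4 stress response, and Phgdh, Psat1, Psph, Shmt2 and Mthfd2, which make serine and pass its carbon into the mitochondrial folate cycle. They were taken by name, as the rows of the count table whose Ensembl identifier carries one of these symbols in the GRCm38 annotation, which made 10 of the 52550 rows members. RNA was sequenced from 6 KPY-Ctrl and 8 KPY-Setd2KO lung adenocarcinomas of mice, which the study compared to learn how loss of the histone methyltransferase Setd2 alters tumor cells. In both groups the mice carried Trp53 flox/flox and Rosa26 LSL-YFP alleles on a mixed B6J/129S4vJae background, and tumors were started by a lentivirus given through the airway that carries Cre, Cas9 and 1 guide RNA. That guide targets β-Galactosidase in KPY-Ctrl and Setd2 in KPY-Setd2KO, so both groups were exposed to Cre and Cas9, and both lack p53 where Cre was active. Each tumor was cut from the lung, digested and sorted for live YFP-positive cells, and the age of the mice at harvest is not given per tumor. The study counts fewer mice than tumors in each genotype without naming the mouse of a tumor, so p-values treat tumors that may share a mouse as independent. The deposited labels speak of RNA from cell lines and of other kits than the methods do, and this conflict was not resolved.

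Atf4 is a transcription factor whose protein is made when phosphorylation of the initiation factor eIF2α slows general translation, as happens when amino acids run short or when mitochondria or the endoplasmic reticulum are stressed. mTORC1 signaling also raises Atf4 protein, and Atf4 then switches on genes that import and make amino acids, among them Asns and the serine enzymes. Serine synthesis starts from the glycolytic intermediate 3-phosphoglycerate, and mitochondria use the serine to charge folate with carbon for nucleotide synthesis. Much of the control of Atf4 lies in translation, which an RNA count does not measure.

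All 10 genes passed the expression filter, as did 16836 of the 52550 rows. Library totals lay between 20072236 and 51828846 counts, and Chac1 was the least abundant member at 1.06 to 9.77 CPM (counts scaled to a common library total after TMM, the trimmed mean of M-values). Setd2 itself had a log2 fold change of -0.74 (SE 0.22) in KPY-Setd2KO relative to KPY-Ctrl, with overlapping groups, and its adjusted p was 0.175 by the quasi-likelihood test of edgeR and 0.0492 by DESeq2. The sorted material was not uniform. A score of 14 leukocyte markers (their mean log2 CPM) was 3.04 to 5.28 in 7 tumors and 8.14 to 8.92 in the other 7, with 3 KPY-Ctrl and 4 KPY-Setd2KO tumors in each range. The summed CPM of the markers ran from 294 to 1062 in the tumors of the lower range and from 6899 to 13286 in those of the upper range. The summed CPM of 14 lung epithelial markers ran the other way, from 23839 to 64034 and from 6310 to 22985. The lymphoid and neutrophil markers stayed between 2.48 and 33.5 CPM in sum, with Cd3e, Cd3g, Cd79a and Nkg7 at 0 in at least 1 tumor, while the 14 macrophage markers reached 74732 CPM. In such bulk samples fewer cells of a type and less RNA per cell cannot be told apart.

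To set levels of different genes beside each other, CPM was divided by the length of the annotated exons in kilobases. Over the 14 tumors the median level per kilobase was highest for Atf4, at 80.9 CPM per kilobase, followed by Phgdh at 65.9 CPM per kilobase, and Atf4 stood above Phgdh in 10 of 14 tumors. Phgdh was above the next gene, Asns, in all 14. Asns (22.0), Psat1 (18.5), Shmt2 (17.0), Ddit3 (14.3) and Mthfd2 (14.2) followed with ranges that overlapped from neighbour to neighbour, each exceeding the next in 6 to 9 tumors, which gives no firm order. Trib3 lay lower at 7.98 CPM per kilobase, below Mthfd2 in 12 tumors. Psph, at 3.30, was below Trib3 in 13 tumors, and Chac1, at 2.43, was below Psph in 8. The range over tumors was widest for Chac1 and Atf4, at 9.18-fold and 9.10-fold, and narrowest for Psph, at 1.56-fold.

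Of the 3 enzymes of serine synthesis, Psat1, the middle one, was lower in KPY-Setd2KO tumors in the estimate but did not pass the test across all genes, and the estimates of Phgdh and Psph, the enzymes before and after it, were close to 0. Whether the 3 genes differ from each other was not tested. Of the 2 mitochondrial folate enzymes, Mthfd2 was also lower in the estimate, and Shmt2 less so. With genotype as the sole term, edgeR called none of the 10 genes and none of the 16836 tested (0% called, while 13.7% had an unadjusted p under 0.05). At that unadjusted threshold stood 2 of the 10, Psat1 and Mthfd2. The genotypes overlapped in CPM in all 10 genes, as in most others, since 0.57% of the genes tested had groups that did not overlap.

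Psat1 (ENSMUSG00000024640, chromosome 19, 15904678 to 15947337 on the minus strand of GRCm38) is the aminotransferase that makes phosphoserine. Its level in KPY-Ctrl tumors was 74.6 CPM at the lowest, 101 at the median and 179 at the highest, and in KPY-Setd2KO tumors 32.9, 60.5 and 96.1. All 8 KPY-Setd2KO tumors lay below the KPY-Ctrl median, and 6 of them lay below the lowest KPY-Ctrl tumor, so the groups overlapped through 2 tumors, KPY-Setd2KO replicates 1 and 8. The group means were 117 ± 42.9 CPM (SD, n = 6) and 64.9 ± 20.5 CPM (SD, n = 8). The log2 fold change was -0.84 (SE 0.26), or 0.557-fold, with an adjusted p of 0.178 from edgeR. Enumerating every split of the 14 tumors (exact permutation, two-sided, not adjusted for the 10 genes) gave p = 0.00766 for a gap in mean log2 CPM of -0.83. DESeq2 called Psat1 (adjusted p = 0.0491), as it did 4.57% of the genes tested. With a covariate for leukocyte-marker RNA, described above, edgeR gave -0.78 and an adjusted p of 0.0575, and of the 5.98% of genes it then called none was among the 10.

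Mthfd2 (ENSMUSG00000005667, chromosome 6, 83305691 to 83325908, minus strand) is a mitochondrial methylenetetrahydrofolate dehydrogenase that is abundant in growing cells. It was measured at 47.9, 53.6 and 70.1 CPM at the lowest, median and highest in KPY-Ctrl tumors, and at 22.6, 33.7 and 61.2 CPM in KPY-Setd2KO tumors. Again 6 of 8 KPY-Setd2KO tumors were below every KPY-Ctrl tumor, and replicates 1 and 8 were within the KPY-Ctrl range. The log2 fold change was -0.57 (SE 0.23), with an adjusted p of 0.283 from edgeR, 0.161 from DESeq2 and an unadjusted p of 0.0186 in the exact permutation test. With the covariate the log2 fold change was -0.58 (adjusted p = 0.121 from edgeR).

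Shmt2 (ENSMUSG00000025403, chromosome 10, 127517123 to 127522444, minus strand), the mitochondrial serine hydroxymethyltransferase that feeds Mthfd2, spanned 52.4 to 63.8 CPM in KPY-Ctrl tumors with a median of 55.7. KPY-Setd2KO tumors spanned 33.7 to 74.0 CPM with a median of 47.3. Of these, 5 were below the KPY-Ctrl range and 1, replicate 8, was above it, so the KPY-Setd2KO tumors were the more spread out. The log2 fold change was -0.21 (SE 0.16), with an adjusted p of 0.623 from edgeR.

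Phgdh (ENSMUSG00000053398, chromosome 3, 98313170 to 98339990, minus strand) encodes phosphoglycerate dehydrogenase, the first and committed step of serine synthesis. KPY-Ctrl tumors had 95.0, 146 and 319 CPM at the lowest, median and highest, and KPY-Setd2KO tumors 84.9, 197 and 256. The ranges covered each other almost wholly, and the log2 fold change of -0.05 (SE 0.35) was far smaller than the spread (adjusted p = 0.973 from edgeR). Of the 75-base stretches of Phgdh transcripts, 35.8% also occur in other genes, most often in the pseudogene Gm7901, which was given 0 to 8 counts per tumor. Psph (ENSMUSG00000029446, chromosome 5, 129765558 to 129787449, minus strand), the phosphatase of the last step, was the steadiest member, at 11.7 to 16.3 CPM in KPY-Ctrl and 11.6 to 18.2 CPM in KPY-Setd2KO tumors. Its log2 fold change was 0.07 (SE 0.15, adjusted p = 0.890 from edgeR). Of its 75-base stretches, 8.07% are shared with other genes, most often with the overlapping gene Cct6a. Ddit3, Psat1, Shmt2 and Mthfd2 also overlap other genes, but share at most 0.236% of such stretches with any gene.

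**Figure D1:**
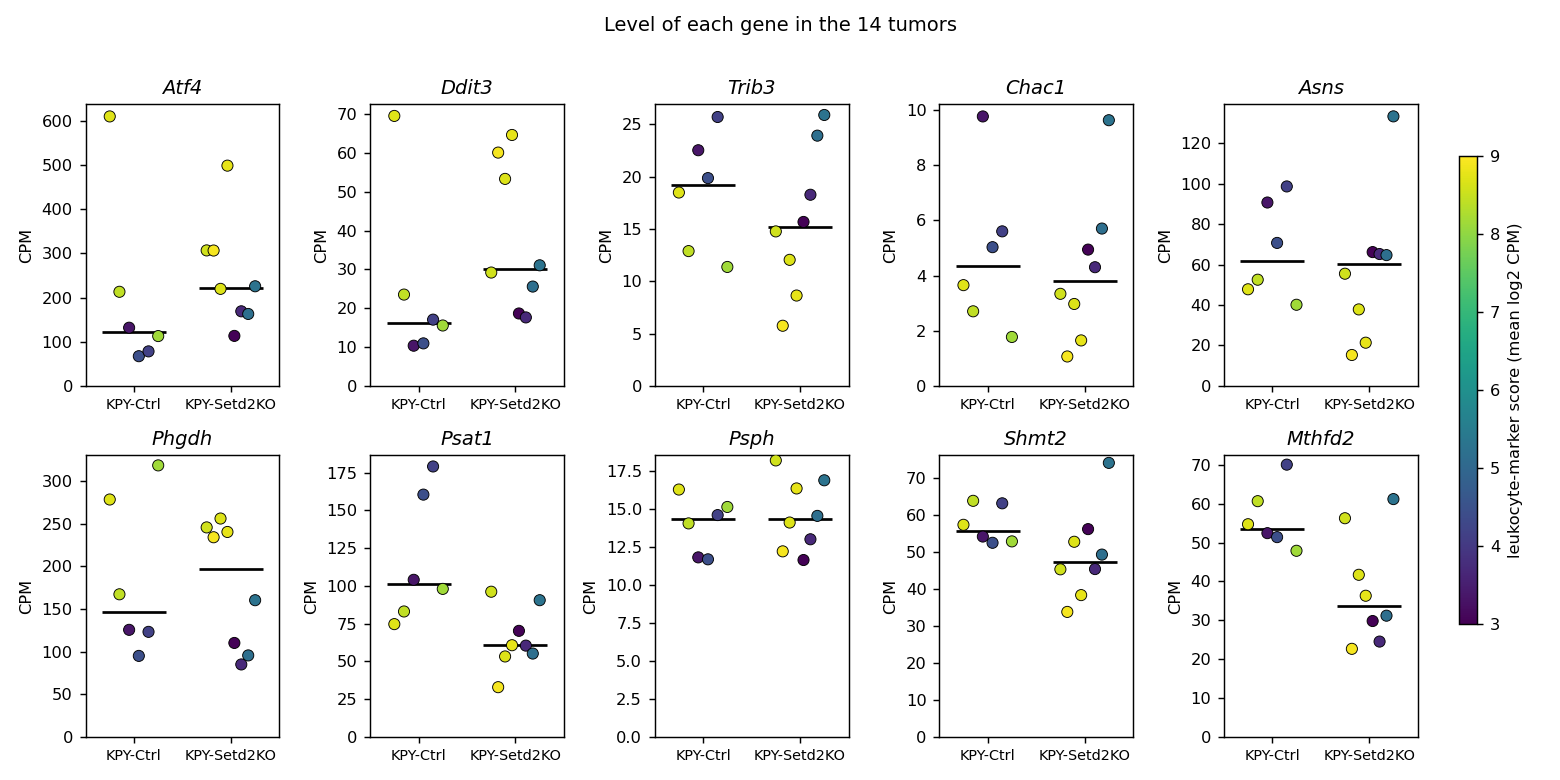
CPM of the 10 genes (vertical axes, linear from 0) in the 6 KPY-Ctrl and 8 KPY-Setd2KO tumors (horizontal axis, 1 point per tumor, bar at the group median), coloured by the leukocyte-marker score from 3 to 9. Psat1 and Mthfd2 each had 6 of 8 KPY-Setd2KO points below every KPY-Ctrl point, while in Asns, Chac1 and Phgdh the colour and not the genotype separates high from low points. The share of all genes so separated by the score was not counted, and 57% were called for it.

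The 5 genes of the stress response gave no uniform picture between the genotypes. Atf4 and its partner Ddit3 had higher medians in KPY-Setd2KO tumors, and Trib3, Chac1 and Asns had slightly lower ones, with no test passed. Atf4 (ENSMUSG00000042406, chromosome 15, 80255184 to 80257541, plus strand) was measured at 67.1, 122 and 610.2 CPM at the lowest, median and highest in KPY-Ctrl tumors, and at 113, 223 and 499 CPM in KPY-Setd2KO tumors. KPY-Ctrl replicate 1 held the highest value of the series, and 7 of 8 KPY-Setd2KO tumors were above the KPY-Ctrl median. The log2 fold change was 0.31 (SE 0.49, adjusted p = 0.853 from edgeR), and it ran from 0.09 without KPY-Setd2KO replicate 4 to 1.05 without KPY-Ctrl replicate 1, not called in either case (smallest adjusted p with a tumor left out 0.192 from edgeR).

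Ddit3 (ENSMUSG00000025408, chromosome 10, 127290774 to 127296288, plus strand) encodes the transcription factor CHOP, which Atf4 induces when stress is prolonged. KPY-Ctrl tumors had 10.3, 16.3 and 69.5 CPM at the lowest, median and highest, and KPY-Setd2KO tumors 17.6, 30.1 and 64.6 CPM. All 8 KPY-Setd2KO tumors exceeded the KPY-Ctrl median, and none exceeded KPY-Ctrl replicate 1. The log2 fold change was 0.62 (SE 0.47, adjusted p = 0.620 from edgeR), or 1.28 without that tumor (adjusted p = 0.129).

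The remaining 3 genes act further along. Trib3 (ENSMUSG00000032715, chromosome 2, 152337422 to 152344032, minus strand) encodes a pseudokinase that Atf4 and CHOP induce and that holds Atf4 activity back. It lay between 11.4 and 25.7 CPM in KPY-Ctrl (median 19.2) and between 5.74 and 25.9 CPM in KPY-Setd2KO tumors (median 15.2), with a log2 fold change of -0.24 (SE 0.31). Chac1 (ENSMUSG00000027313, chromosome 2, 119351229 to 119354381, plus strand), which degrades glutathione, lay between 1.77 and 9.77 CPM (median 4.34) and between 1.06 and 9.64 CPM (median 3.82), with -0.18 (SE 0.48). Asns (ENSMUSG00000029752, chromosome 6, 7675169 to 7693254, minus strand), which makes asparagine, lay between 40.1 and 98.7 CPM (median 61.6) and between 15.3 and 133 CPM (median 60.1), with -0.22 (SE 0.41). The adjusted p from edgeR was 0.811 for Trib3, 0.915 for Chac1 and 0.876 for Asns. With a tumor left out, the log2 fold change ran from -0.39 (without KPY-Setd2KO replicate 8) to -0.12 (without KPY-Setd2KO replicate 2) for Trib3, and from -0.52 to -0.07 without the same tumors for Asns. KPY-Setd2KO replicate 8 held the highest Asns value of the series and replicate 2 the lowest, so the range within that genotype took in the whole KPY-Ctrl range. Over the 10 genes the median log2 fold change was -0.20, with 7 below 0 and 3 above, beside a median of 0.03 over all genes tested.

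**Figure D2:**
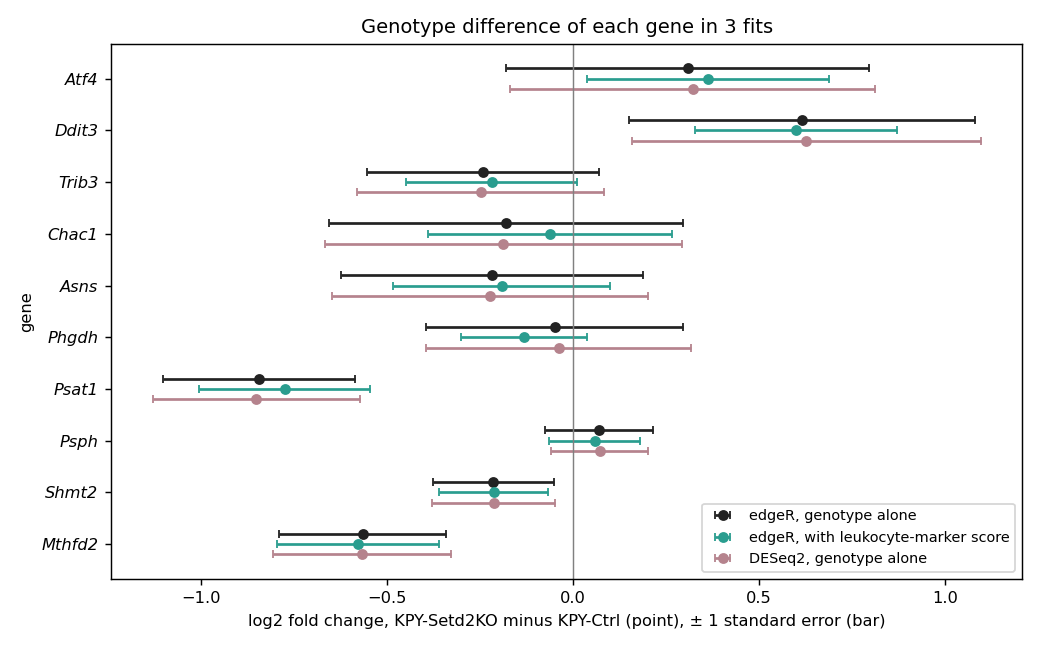
Log2 fold change of each gene, KPY-Setd2KO minus KPY-Ctrl (horizontal axis, points), with 1 standard error on each side (bars), in edgeR on genotype alone, in edgeR with the leukocyte-marker covariate and in DESeq2. Psat1 (-0.84, -0.78 and -0.85) and Mthfd2 (-0.57, -0.58 and -0.57) lie farthest below 0, and the covariate narrows the bars of Atf4, Ddit3 and Phgdh.

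Both genotypes held tumors with much and with little leukocyte-marker RNA, and 6 of the 10 genes changed with it. Atf4, Ddit3 and Phgdh were higher, and Trib3, Chac1 and Asns lower, in tumors with a higher score, in a fit of edgeR with genotype and score together. Such changes were common, since 57% of the 16822 genes tested outside the marker list were called for the score, 28.4% higher and 28.6% lower, and 6 of 10 is close to that share. The part of leukocyte RNA in these values was not tested.

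Asns fell by 0.24 on the log2 scale per unit of score (SE 0.07, adjusted p = 0.00731 from edgeR). It was measured at 15.3 to 55.5 CPM in the 7 tumors of the upper score range and at 64.7 to 133 CPM in the 7 of the lower range, without overlap. Chac1 also did not overlap, with 1.06 to 3.65 CPM in the upper and 4.30 to 9.77 CPM in the lower range, and it fell by 0.29 per unit (SE 0.07, adjusted p = 0.00395 from edgeR). Trib3 fell by 0.17 per unit (SE 0.05, adjusted p = 0.0105 from edgeR), from 15.7 to 25.9 CPM in the lower range to 5.74 to 18.5 CPM in the upper. Phgdh went the other way without overlap, with 167 to 319 CPM in the upper and 84.9 to 160.4 CPM in the lower range, and rose by 0.24 per unit (SE 0.04, adjusted p = 6.6e-05 from edgeR). Thus Phgdh and Asns, which both belong to amino acid synthesis under Atf4, were high in different tumors. The share of all genes without overlap between the score ranges was not counted, and 57% of genes were called for the score.

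Atf4 itself rose by 0.29 per unit of score (SE 0.07, adjusted p = 0.00269 from edgeR) and Ddit3 by 0.30 (SE 0.06, adjusted p = 0.000502), each with overlap between the score ranges. Atf4 reached 113 to 610.2 CPM in the upper range against 67.1 to 225 CPM in the lower, but within the upper range its order was not the reverse of theirs. KPY-Ctrl replicate 1, the highest in Atf4, had more Chac1 (3.65 CPM) and Trib3 (18.5 CPM) than the other 6 tumors of that range, and KPY-Setd2KO replicate 2, the lowest of all in Asns, Chac1 and Trib3, had 306 CPM of Atf4. Psat1 (-0.09 per unit, adjusted p = 0.133 from edgeR), Psph (0.05), Shmt2 (-0.04) and Mthfd2 (0.02) were not called. The 6 calls held in each of the 14 fits that left out 1 tumor, whereas Psat1 was also called without KPY-Setd2KO replicate 1 (-0.13, adjusted p = 0.0231 from edgeR). The slopes of the 2 genotypes did not differ detectably in any of the 10 genes (smallest adjusted p of an interaction 0.667 from edgeR, with 0.398% of genes called). Within the KPY-Setd2KO tumors alone all 6 genes were called (51.8% of genes called, 24.4% higher and 27.5% lower), and within the KPY-Ctrl tumors alone Ddit3, Phgdh, Chac1, Asns and also Psat1 were (40.6% called, 20.5% higher and 20.1% lower), while Atf4 (0.36 per unit, adjusted p = 0.0561) and Trib3 (-0.15, adjusted p = 0.0564) missed the threshold.

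**Figure D3:**
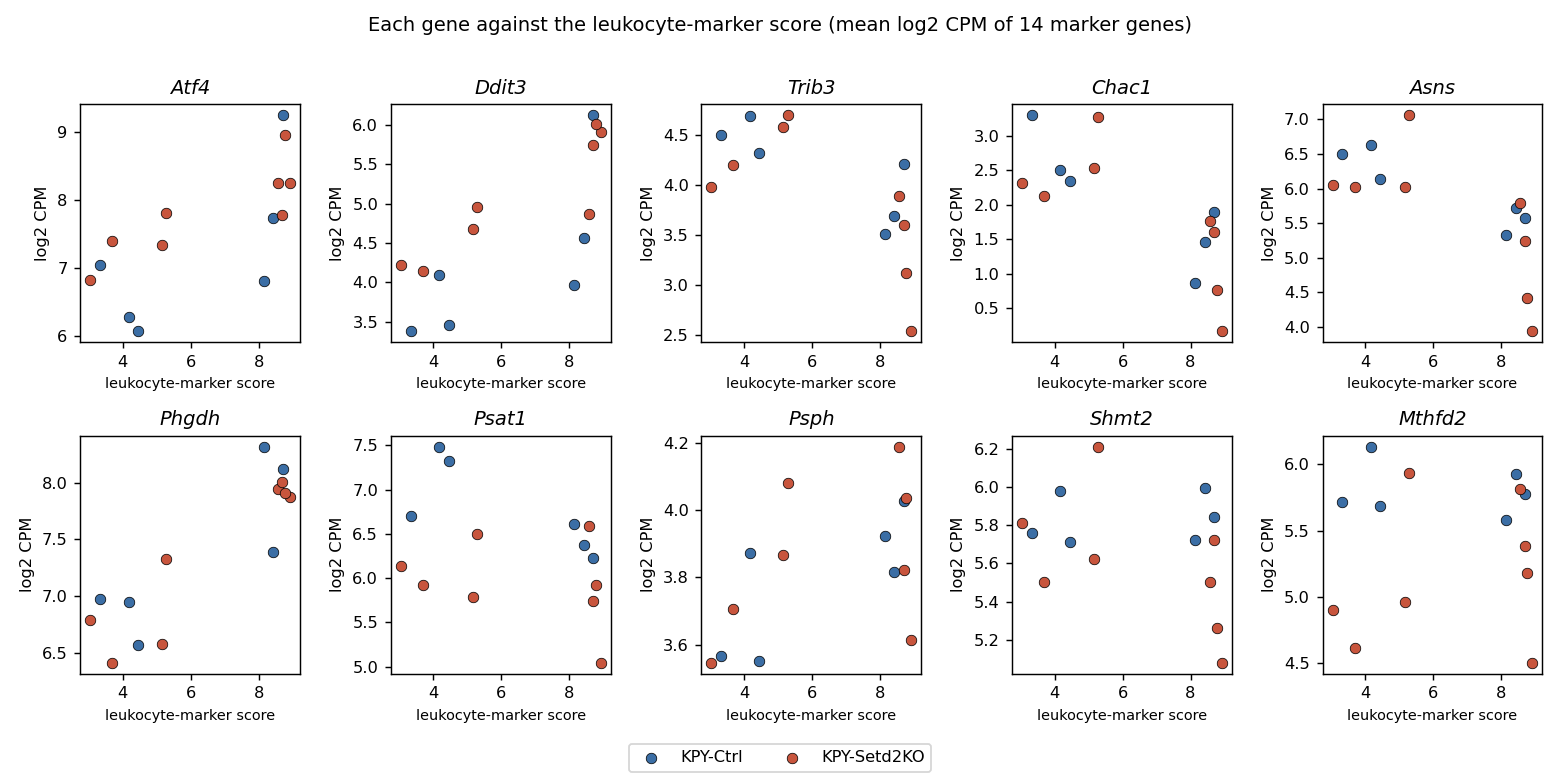
Log2 CPM of the 10 genes (vertical axes) against the leukocyte-marker score (horizontal axes, mean log2 CPM of 14 markers), 1 point per tumor, coloured by genotype. Both genotypes occupy both score ranges, 3.04 to 5.28 and 8.14 to 8.92, and Asns and Chac1 fall while Phgdh and Ddit3 rise from the lower to the upper range.

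Immediate early genes, which cells induce within minutes of stimulation or handling (Fos, Jun, Egr1 and similar genes), moved with the score as well. All 8 on the list were called higher with it, beside 28.4% of all genes. Their summed CPM was 454 to 958 in the 7 tumors of the lower range and 4078 to 7310 in 6 of the 7 in the upper range. The seventh, KPY-Ctrl replicate 6, combined a leukocyte-marker score of 8.14 with an immediate early sum of 688 CPM. In that tumor Atf4 was at 113 CPM and Ddit3 at 15.5 CPM, among the low values, while Phgdh at 319 CPM was the highest of all 14 and Asns at 40.1 CPM was still low. With the immediate early score added to the fit, Atf4 had a slope of -0.01 on the leukocyte-marker score and Ddit3 0.11, neither called. The slopes of Trib3, Chac1 and Asns were -0.11, -0.26 and -0.11, also not called. Chac1 was at -0.29 before that step, and its SE rose from 0.07 to 0.16. The SE also rose from 0.07 to 0.11 for Atf4 and from 0.06 to 0.11 for Ddit3. For Trib3 it rose from 0.05 to 0.11, for Asns from 0.07 to 0.14 and for Phgdh from 0.04 to 0.06. Outside KPY-Ctrl replicate 6 the 2 scores were high or low in the same tumors, so the fit tells them apart poorly. Phgdh alone of the 6 kept its call (0.28, adjusted p = 0.00853 from edgeR, with 16.9% of genes called). That call was lost without KPY-Ctrl replicate 6, where the Phgdh slope was 0.14 (SE 0.097, adjusted p = 0.504 from edgeR). Over all genes, 769 of 17164 were called without that tumor, beside 2849 of 16822 with it. The slopes of Atf4 and Ddit3 without it were 0.02 and 0.25, neither called. In the fit of all 14 tumors Atf4 had a slope of 0.46 per unit of the immediate early score (SE 0.15). Its unadjusted p was 0.00906 and its adjusted p 0.111 from edgeR, where 3.28% of genes were called. The part of immediate early induction in the Atf4 and Ddit3 values was not tested apart from this fit, which was chosen after the values were seen. The proliferation markers moved too, 8 of 10 being called higher with the leukocyte-marker score, beside 28.4% of all genes.

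**Figure D4:**
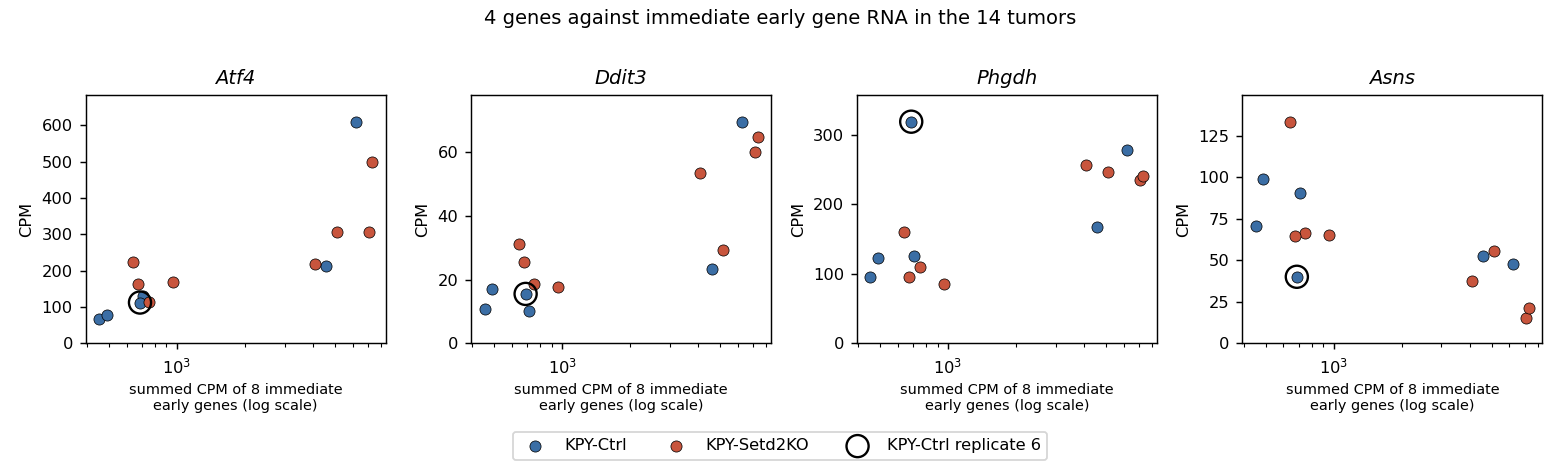
CPM of Atf4, Ddit3, Phgdh and Asns (vertical axes, linear) against the summed CPM of 8 immediate early genes (horizontal axes, log scale) in the 14 tumors, coloured by genotype, with KPY-Ctrl replicate 6 circled. The circled tumor lies with the low points for Atf4 (113 CPM) and Ddit3 (15.5 CPM) and is the highest point for Phgdh (319 CPM).

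The 10 genes were also compared by their correlation over the tumors, once the genotype means were removed. These correlations describe 14 tumors that share preparation and depth, and they carry no test. Trib3, Chac1 and Asns tracked each other most closely on that scale, with Pearson's r of 0.94 in each of the 3 pairs. Once the leukocyte-marker score was removed too, the 3 pairs had r = 0.88, 0.88 and 0.87, and Asns and Mthfd2 also had 0.87. Asns and Shmt2 had r = 0.80, or 0.85 with the score removed. With the score removed, Trib3 and Psph had 0.80, Chac1 and Mthfd2 0.78, and Asns and Psph 0.76. After that step the 3 genes were thus not set apart from Psph, Shmt2 and Mthfd2. Atf4 and Ddit3 had r = 0.86, or 0.67 with the score removed. Atf4 and Asns ran in opposite directions at r = -0.48, or 0.11 with the score removed. Psat1 and Mthfd2 had r = 0.63, or 0.80 with the score removed. By the same measure over all genes tested, the genes most like Atf4 were Siah2 (r = 0.97), Usb1 and Zfp622 (both 0.96), and the genes most like Phgdh were Ndc80 and Cenpn (both 0.96), which act at the mitotic kinetochore and centromere, and Tdp1 (0.96). With the score removed, the genes most like Phgdh were instead Apex1 (0.91), Urm1 (0.90) and Gm48269 (0.83). Trib3 was most like Pycr1 (0.95), an enzyme of proline synthesis, Psat1 most like Ckb (0.93), Ddit3 most like Mpg (0.95) and Asns most like S100a14 (0.97). Aldh1l2, a mitochondrial folate dehydrogenase, was among the 3 most like genes of Chac1 (0.90), Asns (0.94) and Mthfd2 (0.90) with the score removed, and of Shmt2 (0.85) without that step.

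Trib3, Chac1 and Asns are the members whose promoter holds the letters TGATGNAA, the core of the composite element that Atf4 and its C/EBP partners bind. The search took both strands of the RefSeq windows from 250 bases before to 50 bases after each transcript start (GRCm38.p6), in which all 10 genes were found. The letters occurred in 3 of the 10 genes and in 4.51% of all 27025 genes in the table (3.97% of 32851 windows). Whether the letters bear on how these genes varied together was not tested. With the leukocyte-marker score removed, Asns was as close to Mthfd2, which lacks them, as to Chac1 (both r = 0.87). The sites of the 3 genes are printed with the matching bases in capitals, each 5′ to 3′ on the strand of its gene.
Trib3: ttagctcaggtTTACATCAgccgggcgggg
Chac1: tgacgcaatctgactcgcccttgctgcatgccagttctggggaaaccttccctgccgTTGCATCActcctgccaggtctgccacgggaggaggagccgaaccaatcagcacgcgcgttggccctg
Asns: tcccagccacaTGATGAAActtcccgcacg

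The Trib3 site lies at chr2:152344028-152344057, with the first matching base at position 15 from the RefSeq start, reading on the opposite strand. By the gene coordinates given above, whose start differs from that of RefSeq, the matching bases lie upstream of Trib3. The Chac1 stretch lies at chr2:119350992-119351116, upstream of the gene, with the match starting at position -193 from the start and reading on the opposite strand. The Asns site lies at chr6:7693214-7693243, with the match starting at position -23 from the RefSeq start and reading on the strand of the gene. By the gene coordinates given above, whose start again differs, this site lies inside Asns. The endoplasmic reticulum stress element of the unfolded protein response (CCAAT and CCACG with 9 bases between, on both strands) was in none of the 10 members and in 0.119% of windows. A match says only that the letters are present, and its absence in the other 7 members says nothing of whether Atf4 binds elsewhere.

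Related genes were read from 6 lists of 86 genes in all, of which 85 were tested. None was called for genotype by edgeR alone. With the leukocyte-marker covariate 5 were called, 1 higher and 4 lower, beside 3.35% and 2.63% of all genes.

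The regulators around Atf4 (eIF2α kinases and phosphatase subunits, C/EBP factors, Atf5, Nupr1 and the mitochondrial relay Oma1 and Dele1) were 13 genes with a median of 0.28 in log2 fold change, beside 0.03 for all genes. Nupr1, a small stress-induced chromatin protein, stood out by the rule that named it. It was measured at 20.2, 32.9 and 78.5 CPM at the lowest, median and highest in KPY-Ctrl tumors, and at 81.4, 123 and 217 CPM in KPY-Setd2KO tumors. Every KPY-Setd2KO tumor was above every KPY-Ctrl tumor, which held for 0.327% of the genes tested, and the highest KPY-Ctrl tumor was again replicate 1. The means were 38.1 ± 21.4 CPM (SD, n = 6) and 135 ± 45.8 CPM (SD, n = 8), a log2 fold change of 1.82 (SE 0.33). The adjusted p was 0.116 from edgeR on genotype alone, 1.7e-05 from DESeq2 and 0.012 from edgeR with the covariate, and the unadjusted exact permutation p was 0.000333, the smallest that the splits of these tumors can give. Its slope on the leukocyte-marker score was 0.04 (adjusted p = 0.614 from edgeR).

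Other Atf4 targets (amino acid transporters, Atf3, Sesn2, Ddit4 and others) had a median of -0.17 over the 18 of 19 that were tested. Aldh18a1, which starts proline synthesis, had a lowest value of 46.3 CPM and a median of 60.2 CPM in KPY-Ctrl tumors, against 29.7 and 35.7 CPM in KPY-Setd2KO tumors, of which 6 of 8 were below the KPY-Ctrl range. Its log2 fold change was -0.57 (SE 0.17), with an adjusted p of 0.168 from edgeR, 0.0299 from DESeq2 and 0.0481 from edgeR with the covariate. Ddit4, an inhibitor of mTORC1, had the largest estimate of the list at 0.84 (adjusted p = 0.337 from edgeR), with 12.9 to 28.0 CPM in KPY-Ctrl and 13.6 to 67.9 CPM in KPY-Setd2KO tumors. On the leukocyte-marker score 5 of the 18 were called higher (Atf3, Sesn2, Gdf15, Slc7a11 and Slc3a2) and 8 lower, among them Pycr1, Slc7a1 and Slc38a2, beside 28.4% and 28.6% of all genes.

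The folate and one-carbon genes beyond the members had estimates below 0 in KPY-Setd2KO tumors in 16 of 19 cases, beside 47.3% of all genes, and a median of -0.29. At an unadjusted p under 0.05, 6 of 19 were lower, beside 6.8% of all genes, and 1 was higher (Aldh1l1 at 0.75, named after its value was seen). On the leukocyte-marker score 8 of the 19 were called lower and 3 higher, beside 28.6% and 28.4% of all genes, and the part of leukocyte RNA in the list's values was not tested. Shmt1, the cytosolic counterpart of Shmt2, was 19.3 to 71.0 CPM in KPY-Ctrl and 8.81 to 30.4 CPM in KPY-Setd2KO tumors, and all 8 of the latter were below the KPY-Ctrl median of 49.5. Its log2 fold change was -1.17 (SE 0.34), with an adjusted p of 0.165 from edgeR, 0.0361 from DESeq2 and 0.0164 from edgeR with the covariate. Shmt1 also fell by 0.23 per unit of the leukocyte-marker score (adjusted p = 0.000574 from edgeR). Amt, of the glycine cleavage system, had the largest estimate at -1.31 (SE 0.58, adjusted p = 0.339 from edgeR), on low levels of 3.15 to 20.5 and 0.394 to 7.65 CPM.

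Of the aminoacyl-tRNA synthetases and the tRNA exporter Xpot, 4 of 13 were lower at an unadjusted p under 0.05, beside 6.8% of all genes. The median of the list was -0.01. Wars, which charges tryptophan tRNA, had a log2 fold change of -0.56 (SE 0.22) and Xpot of -0.67 (SE 0.26), with adjusted p of 0.267 and 0.274 from edgeR. Both passed with the covariate (adjusted p = 0.0435 and 0.0256 from edgeR) but not in DESeq2 (adjusted p = 0.153 and 0.162), which called Mars of this list (-0.24, adjusted p = 0.0295, named after its value was seen), and both fell with the score, by 0.13 and 0.18 per unit. Endoplasmic reticulum chaperones and sensors had a median of 0.01 between the genotypes, with Calr at 0.55 (adjusted p = 0.363 from edgeR), and 8 of 14 were called higher with the leukocyte-marker score, beside 28.4% of all genes. The 8 mitochondrial chaperones and proteases had a median of 0.15, with Hspe1 at 0.36 (SE 0.26) and Hspa9 at 0.22 (SE 0.14), neither called (adjusted p = 0.590 and 0.525 from edgeR).

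**Figure D5:**
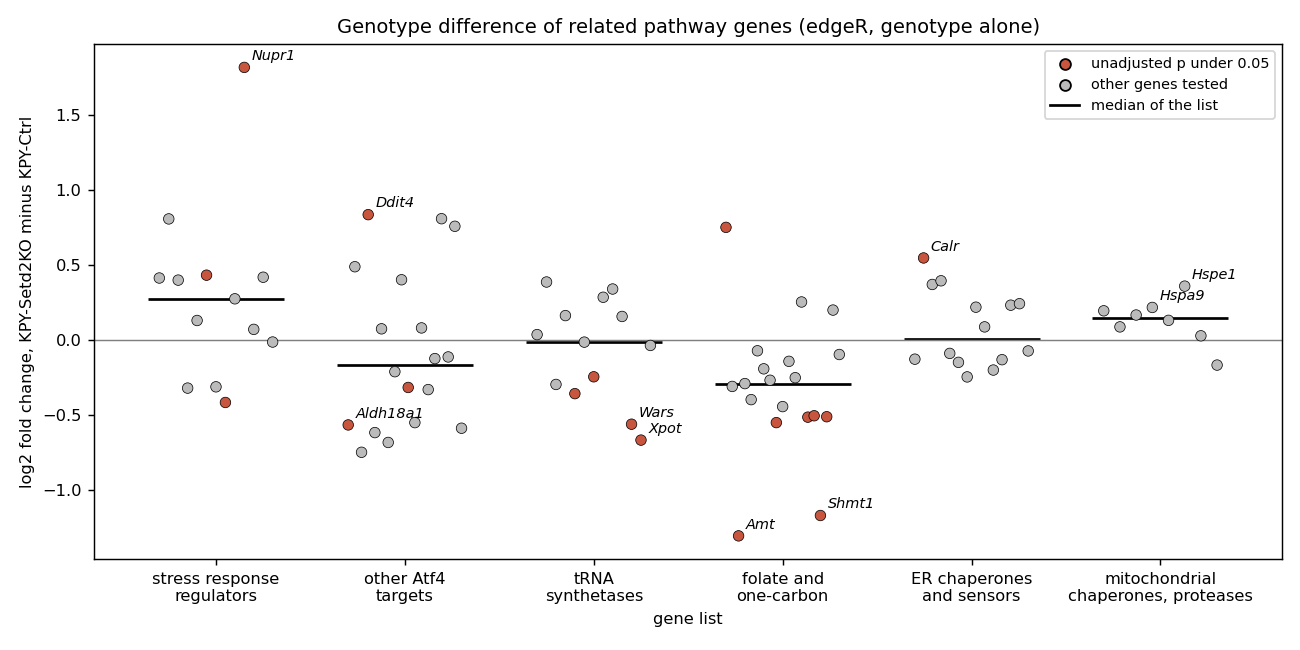
Log2 fold change of the 85 related genes tested, KPY-Setd2KO minus KPY-Ctrl (vertical axis, edgeR on genotype alone), by gene list (horizontal axis), with 1 point per gene, red points at an unadjusted p under 0.05 and a bar at the median of each list. Nupr1 lies highest at 1.82, Amt (-1.31) and Shmt1 (-1.17) lie lowest, and the list medians run from -0.29 to 0.28.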

How the data were processed

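RNA-seq of 14 sorted mouse lung tumors was analysed. The values the authors deposited are estimated counts for each Ensembl gene, rounded to whole numbers (the largest to 3 digits), from 75-base single-end reads quantified with Salmon 0.8.2 (mouse build GRCm38.p5). Library totals ran from 20072236 to 51828846 and were used as deposited. Symbols, exon lengths and coordinates came from GENCODE on GRCm38. Counts of the 14 tumors were fitted with edgeR 4.0.16 in R 4.3.3 (expression filter, TMM scaling, robust quasi-likelihood test, p-values adjusted by Benjamini-Hochberg over all genes), and a gene was called at an adjusted p under 0.05. Log2 CPM used a prior count of 2. A second fit added the mean log2 CPM of 14 leukocyte markers, whose own genes were left out of the counts of calls. DESeq2 1.42.0 (its own low-count filtering off), limma 3.58.1, other scalings and filters, and leaving out each tumor were alternatives. Single genes were compared by a two-sided exact permutation test.

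The members and all lists were chosen with earlier results of these data known, and no list was given a p of its own. Beyond the members and Setd2, the named genes were, in each related list, the gene with the smallest p, the one with the largest change and those called with or without the covariate, and, for each member, its most correlated genes, not all of which are printed. Genes listed as examples of a list's calls were picked after their values were seen. The procedure was run on simulated data, in which the planted differences and slopes were larger than those of any member. Tumors sharing a mouse were not simulated. That run therefore cannot say whether changes of the members' size would be found. Same-numbered tumors had correlations of their deviations from -0.66 to 0.66 over 6 numbers. These were positive where both tumors lay in the same leukocyte-marker score range and negative elsewhere, so they cannot settle whether the numbers mark pairs. The replicate numbers were not used as pairs. Among 91 pairs of libraries none agreed within sampling noise. Part of the genotype that both groups share and 1 marker gene are not reported here.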

Additional observations from a re-analysis of the deposited data

Results flagged for a closer look

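In 84 sets of values (21 genes, 2 genotypes, CPM and log2 CPM), 4 values from 2 tumors stood apart from the rest of their group, all on the CPM scale and none on the log2 scale. Chance sets about 1 in 20 groups apart. KPY-Ctrl replicate 1 did so for Atf4 (610.2 CPM, against 67.1 to 213 in the other 5), for Ddit3 (69.5 CPM, against 10.3 to 23.5) and for Nupr1 (78.5 CPM, against 20.2 to 41.3). KPY-Setd2KO replicate 8 did so for Asns (133 CPM, against 15.3 to 66.2 in the other 7).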

How the results depend on the processing

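The number of genes called for genotype, 0 by edgeR alone, was 770 with DESeq2 and 1006 with the leukocyte-marker covariate, and it ran from 0 to 1 when each tumor was left out (Notch1, without KPY-Ctrl replicate 6). The number called for the score, 9589, was 5745 within KPY-Ctrl tumors alone, 2849 with the immediate early score added and 8868 to 9890 with each tumor left out. The cause was not tested. Over the alternatives, the 10 genotype differences kept direction and call in 211 comparisons, gained a call in 1 (Psat1 with DESeq2) and changed sign in 8, and the 10 slopes did so in 181, 4 and 9. A slope call was lost in 7 comparisons, 5 with the immediate early score added (Atf4, Ddit3, Trib3, Chac1 and Asns) and 2 within KPY-Ctrl (Atf4 and Trib3). Chac1 ran from -0.47 to 0.15 (positive without KPY-Ctrl replicate 3) and Phgdh from -0.18 to 0.17 with a tumor left out. Whether the replicate numbers pair the tumors was not settled. With the replicate block 0 genes were called, Psat1 was at -0.91 and Phgdh at 0.13. Scaling by library size only shifted the median of all genes by -0.14 for genotype and lowered the share of score calls that were higher from 49.9% to 31.6%. Under it the Psph difference was -0.068, the slopes of Psph and Mthfd2 were -0.027 and -0.054, and the slopes of Psat1 (-0.18) and Shmt2 (-0.12) gained a call. The Mthfd2 slope ran from -0.0093 to 0.046 with a tumor left out and was -0.020 within KPY-Ctrl, where that of Shmt2 was 0.0056. With the immediate early score added, the slopes of Atf4 and Shmt2 were -0.0064 and 0.012. The fits within 1 genotype and with the immediate early score were chosen after seeing the data. Tumors that share a mouse were not accounted for.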
